A study of Mus musculus with 12 samples.

Results

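The genes described here encode the linker histone of the oocyte, histone variants that replace the histones made during DNA replication, and the proteins that carry histones or process their mRNAs. The 9 members, H1foo, H3f3a, H3f3b, H2afz, Npm2, Hira, Asf1a, Nasp and Slbp, were chosen by symbol and read from the rows of their Ensembl identifiers, and all 9 were present among the 55573 gene rows. Poly(A) RNA of single mouse oocytes at the germinal vesicle (GV) stage was sequenced in 12 libraries, 2 in each of 6 groups. The groups differed in PCR cycles or in input: whole oocytes amplified for 10, 14 or 18 cycles, and 1/2, 1/4 or 1/8 of an oocyte amplified for 18 cycles. ERCC spike-in RNA was added in the same amount to each lysate, and the study used the fractions to illustrate scaling by it. The oocytes came from a B6D2F1 female of 12 weeks and were held in M2 medium with milrinone, an inhibitor that keeps them arrested, and the labels name no engineered allele. The 6 whole-oocyte libraries came from 6 oocytes, while the 6 fraction libraries were taken from the lysates of only 2 further oocytes. How the fraction libraries fall on those 2 oocytes is not stated, and since the methods name 1 female, the tests measure the spread between libraries and not between animals. Each library held between 1702062 and 13806199 counts on genes and between 1474 and 231470 counts on ERCC molecules. The smallest ERCC totals, 1611 and 1474, were those of the whole oocytes at 18 cycles.

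Linker histones bind nucleosomes where DNA enters and leaves, and H1foo is the subtype that oocytes and early embryos use in place of the somatic ones. Variant histones such as those encoded by H3f3a, H3f3b and H2afz are made outside S phase from polyadenylated mRNAs, so that arrested cells can exchange nucleosomes, and chaperones including HIRA, ASF1A, NASP and nucleoplasmin 2 deliver or store them. Replication-dependent histone mRNAs end in a stem-loop instead of a poly(A) tail, and the stem-loop is bound by SLBP.

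All 10 oocyte markers examined (Zp1, Zp2, Zp3, Gdf9, Bmp15, Oosp1, Nlrp5, Ooep, Mos and Kit) had counts in all 12 libraries. Their summed level was 6188 to 25768 CPM (counts scaled to 1000000 gene counts a library), and the most abundant was Gdf9 in 10 libraries and Ooep in the other two. The 12 markers of cumulus and granulosa cells summed to between 28.1 and 169 CPM, led by Nr5a2 in 10 libraries and by Cyp19a1 in 1/8. Nr5a2, Cyp19a1, Inha and Kitl had counts in all 12 libraries, at most 643, 636, 441 and 189. Gja1, Amh, Hsd17b1 and Inhba reached 377, 71, 60 and 55 counts, and Foxl2 and Fshr 15 and 13. Ptx3 and Gatm, which cumulus cells express, had at most 1 and 2 counts. Blood and immune markers summed to at most 0.172 CPM, and 3 of 5 had no count in any library. The oocyte markers themselves moved between groups, from 24748 and 22063 CPM at 10 cycles to 7289 and 6188 CPM in whole oocytes at 18 cycles, and to 9402 and 8958 CPM in 1/2, 13278 and 14400 CPM in 1/4 and 20474 and 19918 CPM in 1/8. The cumulus and granulosa markers went from 169 and 85.1 CPM at 10 cycles to 67.0 and 28.1 CPM in whole oocytes at 18 cycles, and had 77.9 and 75.8 CPM in 1/8. The part of either set of markers in the members' differences was not tested.

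H1foo (ENSMUSG00000042279, chr6:115944938-115950236 in GRCm38, plus strand) was the most abundant member in every group. It had 3383 and 3099.6 CPM in the whole oocytes at 10 cycles and 3694 and 3769.9 CPM at 14 cycles. In whole oocytes at 18 cycles it had 941 and 1235 CPM, below each of the other 10 libraries. The fractions, although also amplified for 18 cycles, overlapped the libraries at 10 and 14 cycles: 3888 and 2280.1 CPM in 1/2, 2601 and 3388 CPM in 1/4, and 4842 and 2934 CPM in 1/8 of an oocyte. Per length of the transcript, H1foo at 10 cycles reached 2912 ± 180 CPM per kb (SD, n = 2) and stood first of 21851 protein-coding genes, ahead of Gdf9 at 2902 CPM per kb by less than its own spread. It was also first at 14 cycles and in 1/8, sixth in 1/2 and 1/4, and at place 30 in whole oocytes at 18 cycles. The gene alone took 0.324% of all gene counts at 10 cycles and 0.109% at 18 cycles. No stretch of 50 bases of its transcript occurs in another gene's annotated transcripts, so its counts are not shared with a copy.

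**Figure D1:**
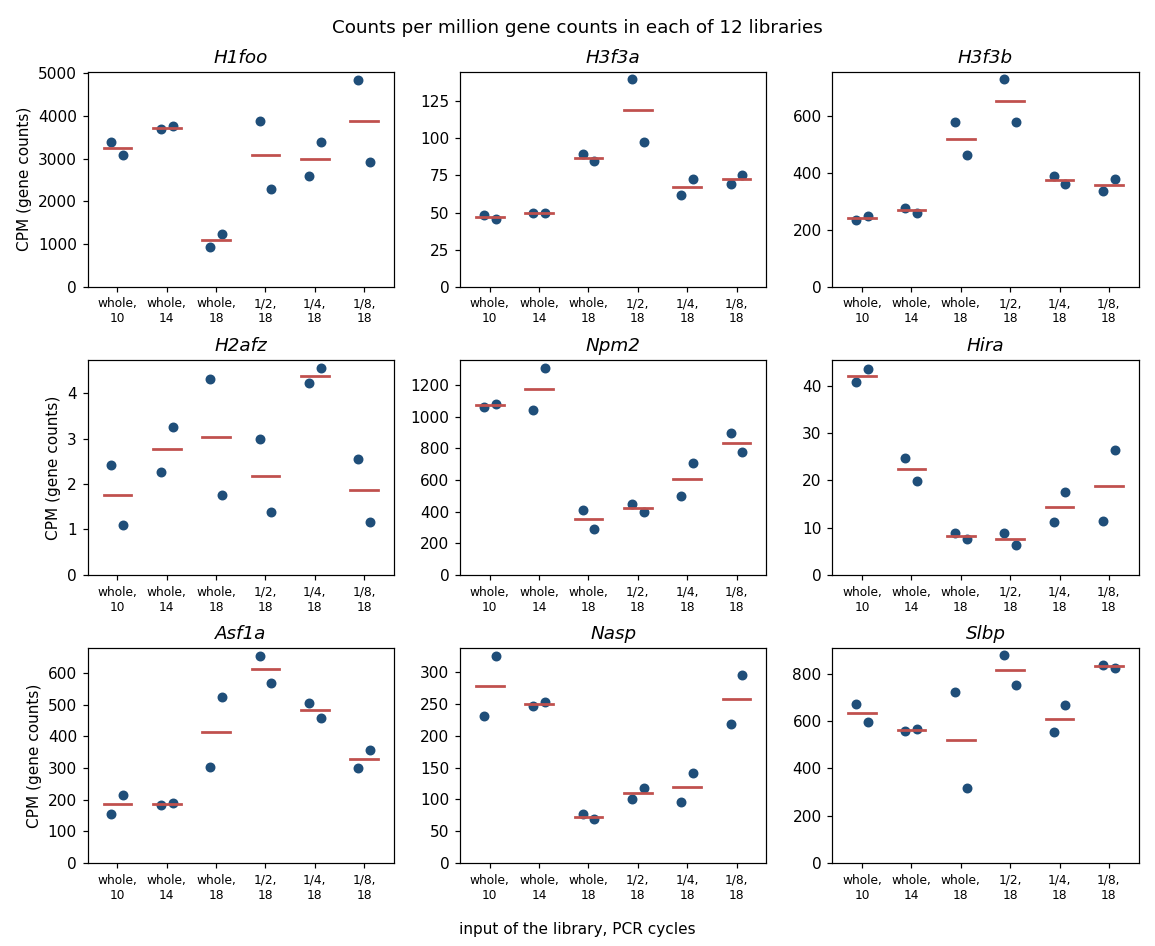
Counts scaled to 1000000 gene counts (CPM, linear axis from 0) of the 9 members in each of the 12 libraries; points are libraries, lines are the means of 2 libraries, and the horizontal axis gives the input and the PCR cycles. As parts of the gene counts, H1foo, Npm2, Hira and Nasp lie lower in whole oocytes at 18 cycles than at 10 or 14 cycles, where the estimates scaled to ERCC are positive, while H3f3a, H3f3b and Asf1a lie higher.

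The only member with a cytoplasmic polyadenylation element, a U-rich motif by which oocytes switch on stored mRNAs, near its annotated 3′ end was H1foo. The last 100 bases of the 9 chosen transcripts were searched for TTTTAT and TTTTAAT, and the motif lay 63 bases before the end of H1foo, in the 3′ untranslated region within chr6:115950157-115950186 (GRCm38, plus strand). Of 11203 coding genes searched in the same way, 19.9% had either motif. The stretch is shown with the motif in capitals, taken from the GENCODE transcript.
H1foo 3′ end: cgattctgaagcTTTTATtgtctaataagc
The polyadenylation signal AATAAA or ATTAAA was present in the last 50 bases of 8 of the 9 members, all but H3f3b, against 78.8% of those genes. Whether either motif bears on the levels in these libraries was not tested.

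Npm2 (ENSMUSG00000047911, chr14:70647302-70659244, minus strand) encodes nucleoplasmin 2, an abundant nuclear chaperone of the oocyte that stores histones and helps to organise chromatin around the nucleolus. It was the second member per length in 5 of 6 groups, with 1073 ± 14.9 CPM per kb at 10 cycles. Its libraries had 1059 and 1080.3 CPM at 10 cycles, 1041 and 1306 CPM at 14 cycles, and 412 and 289 CPM at 18 cycles. The fractions had 449 and 395 CPM in 1/2, 501 and 707 CPM in 1/4, and 894 and 775 CPM in 1/8. Thus Npm2 was low in whole oocytes at 18 cycles and in 1/2, and both libraries of 1/8 exceeded all of 1/2 and 1/4 without reaching the libraries at 10 or 14 cycles. Apart from 39 exon bases that overlap Xpo7, its transcript has no stretch of 50 bases in common with another gene.

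H3f3a (ENSMUSG00000060743, chr1:180800832-180813943, minus strand) and H3f3b (ENSMUSG00000016559, chr11:116021912-116027962, minus strand) encode the same replacement variant of histone H3. Their coding sequences are 411 bases long in both and differ at 95 bases, 81 of them at the third position of a codon, and the 136 encoded residues do not differ. The first 120 bases of each coding sequence, from the GENCODE transcripts, show how the copies are told apart by reads, with the bases that differ in capitals.
H3f3a coding start: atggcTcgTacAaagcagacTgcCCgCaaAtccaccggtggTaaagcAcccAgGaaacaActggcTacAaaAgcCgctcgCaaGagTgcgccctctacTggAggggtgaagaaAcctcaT
H3f3b coding start: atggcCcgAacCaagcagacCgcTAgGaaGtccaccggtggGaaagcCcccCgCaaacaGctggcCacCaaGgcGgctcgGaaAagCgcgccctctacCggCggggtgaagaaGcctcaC
The longest run that the coding sequences share is 23 bases.

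H3f3b gave most of the counts. H3f3a had 48.6 and 45.9 CPM at 10 cycles, 49.7 and 49.7 CPM at 14 cycles, and 89.2 and 85.0 CPM in whole oocytes at 18 cycles. H3f3b had 235 and 249.8 CPM, 277 and 260.2 CPM, and 580.0 and 462 CPM in the same groups. Both copies were thus higher at 18 cycles than in any library at 10 or 14 cycles. Their group means were highest in 1/2 of an oocyte, at 140.1 and 97.8 CPM for H3f3a, above both whole oocytes at 18 cycles, and at 731 and 579 CPM for H3f3b, which overlapped them. In 1/4 and 1/8 they were lower than in whole oocytes at 18 cycles in every library, with 61.8 to 75.2 CPM for H3f3a and 335 to 391 CPM for H3f3b.

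While both levels moved, the share of either copy moved less. In whole oocytes H3f3a made up 17.2% and 15.5% of the summed H3f3a and H3f3b counts with 10 cycles, 15.2% and 16.0% after 14, and 13.3% and 15.5% after 18. For 1/2 of an oocyte the shares were 16.1% and 14.5%, for 1/4 they were 13.6% and 16.6%, and 1/8 gave 17.2% and 16.5%. The group means lay between 14.4% ± 1.57 (SD, n = 2) in whole oocytes at 18 cycles and 16.8% ± 0.472 in 1/8, and both libraries of 1/8 lay above those at 14 cycles, of whole oocytes at 18 cycles and of 1/2, while every other pair of groups overlapped. Wilson intervals at 95% took each count as a separate molecule. They are too narrow, because PCR copies of 1 molecule are counted again. The intervals ran from 15.9% to 18.5% for the first library at 10 cycles and from 14.1% to 19.3% for the second library of 1/8. The share was not tested. The share carries a reservation, because 30.3% of the stretches of 50 bases in the H3f3a transcript also occur in transcripts of 41 other genes, 38 of them pseudogenes, against 8.40% with 3 other genes for H3f3b. Gm17275 and H3f3aos, on the opposite strand, also overlap 798 exon bases of H3f3a.

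**Figure D2:**
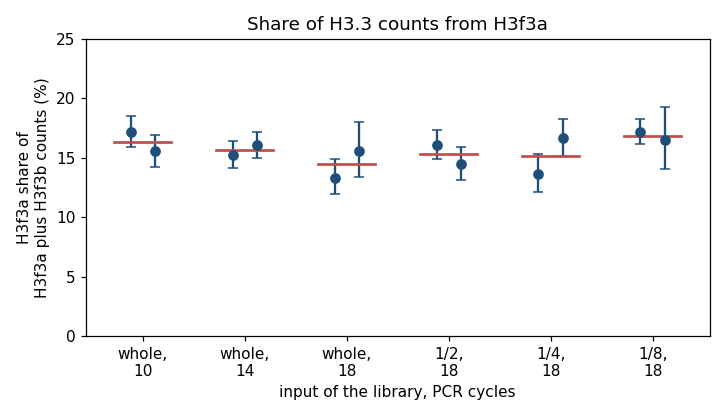
Share of H3f3a in the summed counts of H3f3a and H3f3b, in percent on an axis from 0, in each of 12 libraries. Points are libraries with Wilson 95% intervals and lines are group means. The intervals take each count as a separate molecule and are too narrow where PCR copies are counted again. The shares lie between 13.3% and 17.2%.

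H2afz (ENSMUSG00000037894, chr3:137864487-137866922, plus strand), which encodes the variant H2A.Z placed near promoters, was barely detected. It had between 2 and 45 counts a library, or 1.09 to 4.55 CPM, with group means of 1.75 to 4.39 CPM. The libraries of 1/4, at 4.22 and 4.55 CPM, lay above all others but the first whole oocyte at 18 cycles, which had 4.31 CPM from 13 counts, and the remaining groups overlapped. Of its transcript's stretches of 50 bases, 69.6% occur in transcripts of 6 other genes, 4 of them pseudogenes, and how reads with several matches were treated is not known from the files, which list none. Its low level is therefore uncertain.

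As parts of the gene counts, the chaperones of histones H3 and H4 differed in direction from 10 to 18 cycles, while by ERCC the log2 fold changes of Hira (0.17), Nasp (0.54) and Asf1a (3.52) were all positive. Hira (ENSMUSG00000022702, chr16:18877037-18970309, plus strand), the subunit after which the complex that deposits the replacement H3 outside S phase is named, had 40.8 and 43.6 CPM at 10 cycles, 24.9 and 19.9 CPM at 14 cycles, and 8.95 and 7.62 CPM in whole oocytes at 18 cycles. Both libraries at 14 cycles thus lay below both at 10 cycles, and both at 18 cycles lay below all 4. In the fractions it had 8.94 and 6.39 CPM in 1/2, 11.2 and 17.6 CPM in 1/4, and 11.4 and 26.4 CPM in 1/8. The libraries of 1/4 and of 1/8 differed within each group by more than these 2 means did. Its counts are uncertain, since 2778 of its 6215 exon bases are also exon of Gm28539, an annotated gene on the same strand that had 335 and 218 counts against 473 and 401 for Hira at 10 cycles.

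Asf1a (ENSMUSG00000019857, chr10:53596757-53609225, plus strand), which hands H3 and H4 dimers to the complexes that deposit them, had a higher CPM at 18 cycles. It had 156 and 215 CPM at 10 cycles, 185 and 191 CPM at 14 cycles, and 302 and 523 CPM in whole oocytes at 18 cycles. The level was 653 and 569 CPM in 1/2, 507 and 459 CPM in 1/4, and 301 and 358 CPM in 1/8. Every library at 18 cycles, whole or fraction, thus exceeded all 4 libraries at 10 and 14 cycles, and 1/8 lay under 1/2 and 1/4. On the opposite strand the gene Mcm9 covers 1748 of the 3638 exon bases of Asf1a, and the library kit does not mark strand, so reads of the pair cannot be told apart there. Whether the counting assumed a strand is not settled, since the methods and the labels of the deposited counts differ on it. How reads in this overlap, and in those of H3f3a and Slbp with genes on the opposite strand, were counted is therefore not known. Mcm9 had 1316 and 1260 counts against 1810 and 1972 for Asf1a at 10 cycles. In whole oocytes at 18 cycles, whose libraries held fewer gene counts, it had 946 and 997 against 911 and 893. As a part of the gene counts Mcm9 was thus also higher at 18 than at 10 cycles, and its part in the difference of Asf1a was not tested.

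Nasp (ENSMUSG00000028693, chr4:116601052-116627941, minus strand), the chaperone that protects the soluble pool of H3 and H4, followed Npm2. Its level was 231 and 324 CPM at 10 cycles and 246 and 252 CPM at 14 cycles, against 76.9 and 69.1 CPM in whole oocytes at 18 cycles. It had 101 and 118 CPM in 1/2, 96.3 and 142 CPM in 1/4, and 219 and 296 CPM in 1/8. The second library of 1/8 fell in the range of 10 and 14 cycles and the first just under it, both above all libraries of 1/2 and 1/4.

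Slbp (ENSMUSG00000004642, chr5:33634952-33652574, minus strand) varied least of the members over the 12 libraries, by 2.78 times between the lowest and the highest. It had 674 and 598 CPM at 10 cycles, 557 and 567 CPM at 14 cycles, and 724 and 316 CPM in whole oocytes at 18 cycles, the last group being wider than the distance to any other group. The fractions had 879.6 and 751 CPM in 1/2, 555 and 667 CPM in 1/4, and 837 and 825 CPM in 1/8. Both 1/2 and 1/8 thus lay above all libraries at 10 and 14 cycles, which 1/4 and the whole oocytes at 18 cycles overlapped. Of its transcript's stretches of 50 bases, 18.0% are shared with 2 other genes, and Gm10459 on the opposite strand overlaps 474 of its exon bases.

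Per length of the transcript the order at 10 cycles was H1foo, Npm2, Slbp (334 CPM per kb), Nasp (131), H3f3b (96.4), Asf1a (84.2), H3f3a (16.6), Hira (10.0) and H2afz (1.64). Of these neighbours, H3f3b and Asf1a overlapped between libraries. In whole oocytes at 18 cycles the order was H1foo (978 CPM per kb), Npm2 (352), Slbp (273), H3f3b (207), Asf1a (187), Nasp (34.5), H3f3a (30.6), H2afz (2.84) and Hira (1.96), and the 4 genes from Npm2 to Asf1a each overlapped their neighbours, as did H2afz and Hira. With the length of all exons of a gene in place of the longest principal transcript, an alternative chosen after seeing the data, Nasp stood at place 6 instead of 4 at 10 cycles, and Slbp at place 5 instead of 3 at 18 cycles. H1foo kept the first place in all 6 groups under both lengths. The 9 members together made up 0.574% ± 0.0122 of gene counts at 10 cycles, 0.625% ± 0.0242 at 14 cycles and 0.306% ± 0.0106 at 18 cycles (SD, n = 2). Without H1foo the sums were 0.250% ± 0.00780, 0.252% ± 0.0189 and 0.198% ± 0.0314. Both sums are lower at 18 than at 10 cycles only as parts of the gene counts, since by ERCC the log2 fold changes of all 9 members were positive (0.88 for H1foo, where the median of all genes was 1.96). In the fractions they made up 0.583% ± 0.145, 0.527% ± 0.0772 and 0.659% ± 0.130, from 1/2 to 1/8.

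The comparison of cycle numbers asks whether amplification alters the relative abundance of transcripts in the same kind of sample. Between 14 and 10 cycles no member was called by edgeR at an adjusted p under 0.01, and of all 17532 genes tested 0% were. DESeq2 called no member either (0.0114% of all genes), and 1 of the 9, Hira, had an unadjusted p under 0.05, as 2.93% of all genes had, with a log2 fold change of -0.95 (SE 0.26). Between 18 and 10 cycles, 4 members were lower and 3 were higher relative to the other genes, where 10.8% of all genes tested were lower and 12.3% higher, and by ERCC size factors 5 were higher and none lower, all 9 estimates being positive, where 47.6% of all genes were higher and 0% lower. The comparison of 18 with 14 cycles, which shares the libraries at 18 cycles, had 3 members lower and 3 higher, against 10.7% and 12.5% of all genes, and by ERCC again 5 higher and none lower, with all 9 estimates positive, against 47.9% and 0.0114% of all genes. These counts describe the members, which were chosen with earlier results known.

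From 10 to 18 cycles Hira had a log2 fold change of -2.08 (SE 0.31, adjusted p = 0.000592) over genes, which became 0.17 by ERCC size factors. Nasp changed by -1.67 (SE 0.23, adjusted p = 0.000425), or 0.54 by ERCC. Npm2 changed by -1.35 (SE 0.21, adjusted p = 0.000800), or 0.93 by ERCC, and H1foo by -1.29 (SE 0.22, adjusted p = 0.00139), or 0.88 by ERCC. Among all genes tested, 28.5% had a log2 fold change as low as that of H1foo and 16.0% one as low as that of Hira. Asf1a was higher by 1.44 (SE 0.31, adjusted p = 0.00461), H3f3b by 1.36 (SE 0.19, adjusted p = 0.000474) and H3f3a by 1.15 (SE 0.20, adjusted p = 0.00145). H2afz, at 1.09 (SE 0.72) or 3.48 by ERCC, and Slbp, at -0.05 (SE 0.29) or 2.33 by ERCC, were not called over genes. H2afz was at 0.36 without the first whole oocyte at 18 cycles and at 0.68 without the second library at 10 cycles, but at 1.74 without the first at 10 cycles and 1.51 without the second at 18 cycles. All 7 called genes had both libraries at 18 cycles on one side of both libraries at 10 cycles. This adds little to the calls, and how many of all genes did so was not counted. Against 14 cycles the log2 fold changes were -1.46 for H1foo, -1.45 for Npm2 and -1.47 for Nasp, which by ERCC were 0.72, 0.86 and 0.79. They were 1.46 for Asf1a, 1.25 for H3f3b and 1.11 for H3f3a, and Hira, at -1.13 (SE 0.31, adjusted p = 0.0157) or 1.14 by ERCC, was not called by edgeR over genes. DESeq2 called it lower over genes (adjusted p = 0.00777), as did edgeR with a filter of at least 10 counts in every library (adjusted p = 0.00906). By ERCC, edgeR with the filter as reported did not call Hira (adjusted p = 0.0645).

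The scaling moved all genes together. For each ERCC count, whole oocytes had 323 and 360 gene counts at 10 cycles but 1873 and 1158 at 18 cycles. The latter rest on 1611 and 1474 ERCC counts, and the cause of the difference was not tested. Values by ERCC are therefore not read as amounts of RNA. When size factors were computed from ERCC molecules, the median log2 fold change of all genes from 10 to 18 cycles went from -0.29 to 1.96, and edgeR called 8348 genes higher and none lower in place of 2155 higher and 1898 lower. Without adjustment (edgeR, threshold of 0.05), 10433 genes were higher and 56 lower on the ERCC scale, and DESeq2 was not run on that scale for the PCR cycles. H1foo, Npm2, Nasp and Hira, positive on that scale, were not called and stayed under the median of all genes. H3f3b, Asf1a, H2afz, H3f3a and Slbp were called higher, at 3.62, 3.52, 3.48, 3.38 and 2.33. Under both scalings those 4 members lay below the median of all genes and the other 5 above it. Since new size factors move all genes nearly alike, this is no separate result.

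**Figure D3:**
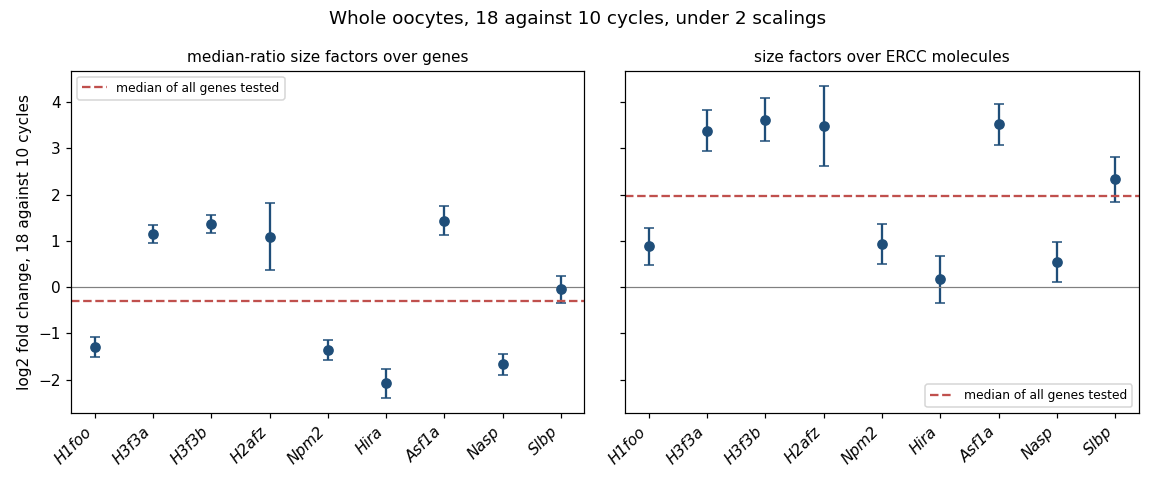
log2 fold changes (linear axis) of the 9 members in whole oocytes at 18 against 10 cycles, 2 libraries each, with size factors over genes (left) and over ERCC molecules (right); bars are standard errors and the dashed line is the median of all 17532 genes tested. The 4 members below the dashed line on the left, H1foo, Npm2, Hira and Nasp, are the 4 below it on the right, where their values are positive. Their side of the line is bound to stay nearly the same, because the scaling moves all genes together.

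Several of these calls were lost with 1 library left out, mostly at nearly the same log2 fold change. Without the first library at 10 cycles 4 of the 7 members were called from 10 to 18 cycles, H1foo, H3f3a and Asf1a being lost, and without the second 3, Npm2 being lost as well. In these 2 fits H1foo was at -1.27 and -1.32, H3f3a at 1.15 and 1.14 and Asf1a at 1.19 and 1.73, and Npm2 was at -1.30 without the second, all over genes (H1foo and Npm2 being positive by ERCC). Without the second library at 18 cycles 6 were called, and Asf1a fell to 0.92. H3f3b, Hira and Nasp were called in each of the 6 fits with a library left out. Against 14 cycles, 3 members were called without the first library at 14 cycles (H1foo, Npm2 and Nasp) and 2 without the second (H1foo and Nasp). There H3f3a was at 1.13 and 1.10, H3f3b at 1.31 and 1.20 and Asf1a at 1.45 and 1.47, and Npm2, positive by ERCC, was at -1.29 without the second. Asf1a was also lost there, leaving 5, without either library at 10 cycles and without the second at 18 cycles, where it was at 0.94. A group then rests on 1 library that is assumed to vary like the others. The members that were lower at 18 cycles relative to other genes, though not by ERCC, have a GC content of 54.3% (H1foo), 52.4% (Npm2), 53.8% (Hira) and 43.7% (Nasp). Those that were higher have 43.2% (H3f3a), 43.4% (H3f3b) and 38.6% (Asf1a), where the median of 11927 coding genes is 50.1%. The part of base composition in the difference was not tested.

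The fractions, with less RNA in the reaction, were amplified for 18 cycles like the whole oocytes they are compared with. They came from 2 other oocytes, so input and oocyte cannot be told apart in these comparisons. The fits treated the fraction libraries as independent although they share those lysates. Their standard errors therefore do not measure the spread between oocytes. With size factors over genes, no member was called between 1/2 and whole oocytes, where 0.122% of the 14788 genes tested were, and 1 member, H1foo, had an unadjusted p under 0.05, as 13.1% of all genes had. Its log2 fold change was 1.46 (SE 0.32, adjusted p = 0.0346) over genes and -0.40 by ERCC, and DESeq2 called it as the only member, with 1.03% of all genes. Between 1/4 and whole oocytes edgeR again called no member, against 0.460% of all genes, while 3 had an unadjusted p under 0.05, where 15.8% of all genes did. DESeq2 called 1.63% of all genes and, of the members, H1foo, at 1.30 (SE 0.32, adjusted p = 0.0423 by edgeR) over genes and -1.38 by ERCC. Between 1/8 and whole oocytes 3 members, H1foo, Nasp and Npm2, were higher over genes and lower by ERCC, where 7.06% of all genes tested were higher and 8.69% lower over genes. No member was called lower over genes by edgeR or by DESeq2, which called 10.7% of all genes lower, and 1, H3f3b, was lower at an unadjusted p under 0.05, as 20.9% of all genes were.

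In 1/8 the log2 fold change was 1.63 for H1foo (SE 0.32, adjusted p = 0.000837), 1.61 for Nasp (SE 0.30, adjusted p = 0.000440) and 1.06 for Npm2 (SE 0.28, adjusted p = 0.00677) over genes, and -3.25, -3.36 and -3.95 by ERCC. Each had a higher CPM in both libraries of 1/8 than in both whole oocytes, as the summed oocyte markers above also had, and the part of those in the calls was not tested. H3f3b was at -0.74 (SE 0.27, adjusted p = 0.0458), which did not pass. Nasp was called in all 8 fits with a library left out, while H1foo was lost without the first whole oocyte, at 1.36, and without the first library of 1/8, at 1.24. Npm2 was called in the fits without the first or the second library of 1/2 and was lost without either whole oocyte, either library of 1/4 or either library of 1/8, with log2 fold changes between 0.87 and 1.24. Hence 1 member was called without the first whole oocyte and 1 without the first library of 1/8.

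The fractions can also be compared with each other, although how their libraries fall on the 2 oocytes is not stated. Between 1/4 and 1/2 edgeR called no member and 0% of all genes, DESeq2 called no member and 0.176% of all genes, and 2 members, H3f3a and H3f3b, had an unadjusted p under 0.05, where 12.5% of all genes did. Between 1/8 and 1/2 edgeR called no member, where 5.94% of all genes tested were called, although 5 members, and 29.0% of all genes, had an unadjusted p under 0.05. DESeq2 called 9.79% of all genes and 3 members: H3f3b, at -1.04 (SE 0.27, edgeR adjusted p = 0.0134), Asf1a, at -1.06 (SE 0.30, edgeR adjusted p = 0.0227), and Nasp, at 1.07 (SE 0.29, edgeR adjusted p = 0.0162). For these 3 genes both libraries of 1/8 lay on one side of both libraries of 1/2. The same held for H3f3a, Npm2 and Hira, which were not called, and was not counted for all genes. With edgeR, Asf1a alone was called without the first and without the second whole oocyte, at -1.07 in both fits.

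Among the libraries at 18 cycles, counts of the members for each ERCC count were lower with less input, with overlaps between groups for 4 of the 9. H1foo had 1.76 and 1.43 counts for each ERCC count in whole oocytes at 18 cycles, then 1.71 and 0.784 for 1/2, 0.557 and 0.588 for 1/4, and finally 0.239 and 0.136 for 1/8. Asf1a went from 0.565 and 0.606 in whole oocytes to 0.287 and 0.196 for 1/2, then 0.109 and 0.0798 for 1/4, and finally 0.0148 and 0.0167 for 1/8. At 18 cycles the groups of Asf1a, H3f3a, H3f3b, Npm2 and Nasp fell in the order of the input with no overlap. So did the summed gene counts for each ERCC count. They were 1873 and 1158 in whole oocytes, 439 and 344 in 1/2, 214 and 174 in 1/4, and 49.3 and 46.5 in 1/8. How many of all genes fell in this order was not counted. For H1foo and Slbp 1 library of 1/2 lay above a whole oocyte (for Slbp 0.386 against 0.366), and for Hira and H2afz the libraries of 1/2 and 1/4 overlapped. With the whole oocytes at 10 and 14 cycles included, the order by input did not hold for every member. Asf1a had 0.0505 and 0.0772 at 10 cycles and 0.0641 and 0.0676 at 14 cycles, below all libraries of 1/2 and 1/4. H1foo, at 1.09 to 1.33, lay below the first library of 1/2. Npm2, Nasp and Hira lay above every fraction library there.

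With size factors over ERCC molecules, 7 of 9 members were lower in 1/2 than in whole oocytes, all but H1foo and H2afz, where 52.0% of all genes tested were lower. Of these 7, Asf1a was lost with no filter on low counts (adjusted p = 0.0126) and Slbp, whose libraries overlapped, with total ERCC counts as size factors (adjusted p = 0.0102). In 1/4, 8 members were lower, all but H2afz, against 69.7% of all genes, and in 1/8 all 9 were, against 87.5%. The members' shares are read against a median of all genes of -2.00, -2.69 and -4.92 on the log2 scale from 1/2 to 1/8. These medians lie below what 1/2, 1/4 and 1/8 of the input alone would give. The whole oocytes at 18 cycles, the reference, had 1873 and 1158 gene counts for each ERCC count. Whole oocytes at 10 cycles had 323 and 360, and 1/2 had 439 and 344. The values by ERCC are thus relative to that reference and are not read as amounts of RNA. The log2 fold change of H1foo was -0.40 (SE 0.47) in 1/2 (0.07 without the second library of 1/2), -1.38 (SE 0.47, adjusted p = 0.00745) in 1/4 and -3.25 (SE 0.51, adjusted p = 6.15e-08) in 1/8, above the median of all genes by 1.60, 1.31 and 1.67. In 1/8 Nasp, at -3.36, Npm2, at -3.95, Hira, at -4.04, and Slbp, at -4.59, also lay above that median, and Asf1a (-5.39), H3f3a (-5.43), H3f3b (-5.73) and H2afz (-5.80) below it.

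The number of ERCC calls in 1/2 changed with single libraries. Without the first whole oocyte, or without the second library of 1/2, the count fell from 7 members to 0, and H3f3b, Npm2, Nasp and Slbp moved to -1.01, -0.98, -0.90 and -0.16 without that whole oocyte. It was 3 without the first library of 1/2, 2 without either library of 1/4 and 6 without either library of 1/8, and without the second whole oocyte H2afz was called as well, making 8. In 1/4, H1foo and Hira were lost without the first whole oocyte or either library of 1/4, leaving 6, Npm2 and Slbp moved to -1.39 and -1.49 without that oocyte, and H2afz was added without the second, making 9. In 1/8 all 9 members were called in each fit with a library left out.

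Around the members, a list of 68 genes was counted: other variants and linker histones, further chaperones, the enzymes that exchange H2A.Z, and the factors that process histone mRNAs. All but H3f3c, a copy of the replacement H3 genes, passed the filter on low counts. Of the 67 genes tested, 7 were lower and 21 higher from 10 to 18 cycles, or 10.4% and 31.3% beside the 10.8% and 12.3% of all genes, and by ERCC 54 of 67 were higher, where 47.6% of all genes were. The median log2 fold change over genes was 0.26 for the list and -0.29 for all genes. The higher genes included 7 of the 8 variants and linker histones tested. The largest changes among genes of at least 10 CPM were those of H2afj at 3.87 (SE 0.28), H2afx, whose product is phosphorylated at DNA breaks, at 3.19 (SE 0.30), and the somatic linker histones H1fx at 3.08 (SE 0.40) and H1f0 at 2.76 (SE 0.22). These 4 genes were called in each fit with a library left out, at 3.63 to 4.13, 2.72 to 3.57, 2.62 to 3.50 and 2.66 to 2.91, and were higher over genes, by TMM and by ERCC.

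The lower genes of the list with the largest changes over genes turned positive by ERCC, as H1foo did. Mis18a, which helps to load the centromeric H3, was at -1.42 (SE 0.31), or 0.72 by ERCC, and Zfp473, of the machinery that cuts histone mRNAs, at -1.41 (SE 0.33), or 0.91 by ERCC. Npat, an activator of replication-dependent histone genes, was at -1.36 (SE 0.27), or 0.89 by ERCC, and Npm1, a nucleolar relative of Npm2, at -1.31 (SE 0.21), or 0.92 by ERCC. Mis18a and Npat were not called without either library at 10 cycles or the first at 18 cycles, where Mis18a was at -0.94. Zfp473 was lost without either library at 10 cycles, the second at 14 or the second at 18 cycles, and was at -2.14 without the first at 18 cycles. Npm1 was lost without the second library at 10 cycles, at -1.13.

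From whole oocytes to 1/8 the list had 13 genes lower and 4 higher of 67, or 19.4% and 5.97% beside 8.69% and 7.06% of all genes, with a median of -0.31 beside 0.03, and by ERCC all 67 were lower, where 87.5% of all genes were. The 4 lower genes with the largest changes were H1fx at -4.21 (SE 0.54), H2afj at -3.54 (SE 0.40), Ubn1, of the complex around HIRA, at -2.96 (SE 0.32) and H1f0 at -2.22 (SE 0.30), each called with any 1 library left out. H1fx moved to -5.40 and H2afj to -4.40 without the first library of 1/8, and with 1 library left out the 4 genes ranged from -5.40 to -3.75, -4.40 to -3.11, -3.35 to -2.47 and -2.41 to -1.99. The 4 higher over genes were all lower by ERCC: Mis18a at 1.67 (SE 0.38) and -3.19, Npm1 at 1.46 (SE 0.31) and -3.52, Asf1b, the paralog of Asf1a, at 1.43 (SE 0.34) and -3.50, and Atrx, whose product works with DAXX to deposit the replacement H3, at 1.13 (SE 0.29) and -3.84. All 4 were lost without the first whole oocyte. Mis18a and Asf1b were also lost without the first library of 1/8, Npm1 and Atrx without the second, where Atrx was at 0.75, Npm1, Asf1b and Atrx without the second whole oocyte, and Atrx without either library of 1/4. In 1/2 and in 1/4 a single gene of the list was called over genes, where 0.122% and 0.460% of all genes were: Cstf2t and Ubn1, both lower and named after their values were seen. By ERCC 52 and 63 of the 67 were lower, or 77.6% and 94.0% beside 52.0% and 69.7% of all genes.

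The genes most like each member were ranked by Pearson correlation of log2(CPM + 1) over the 12 libraries, among 7104 genes of at least 20 CPM on average. The 12 libraries fall into 6 groups of 2 and share oocytes within the fractions, so these values describe a shared pattern of groups and have no test. H1foo was most like Nol12 (r = 0.983) and Banp (0.978), Npm2 most like Usp37 (0.991) and Lancl1 (0.989), and Nasp most like Ccdc14 (0.992) and Zwilch (0.989). H3f3a was most like Commd1 (0.977) and Mrpl53 (0.968), and H3f3b most like Cks2 (0.978) and Rps26 (0.975). Asf1a was nearest to Btf3l4 (0.976) and Suv39h2 (0.960), Hira to Ddx19b (0.960) and Dst (0.945), Slbp to Pno1 (0.946) and Selenof (0.946), and H2afz to Zfp707 (0.943) and Arpc1a (0.893). The neighbours of H2afz are uncertain, as it had only 2 to 45 counts a library. With log2(CPM + 0.1), 16 of the 18 pairs stayed, while Itgb1bp1 replaced Mrpl53 for H3f3a and Scamp5 replaced Arpc1a for H2afz. No member was among the nearest 2 genes of another, which H2afz and Hira, under 20 CPM on average, could not be. Members were nonetheless correlated over the 12 libraries, most highly H3f3a with H3f3b (0.965) and Npm2 with Nasp (0.919). The lowest correlation was -0.862, of H3f3b with Npm2.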

How the data were processed

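The authors trimmed reads with Cutadapt, aligned them with STAR to GRCm38 plus the ERCC sequences and counted them per gene with HTSeq; the submitters' notes name versions 2.5, 2.7.2a and 0.9.1. The deposited values are whole counts for each gene and ERCC molecule. Reads on no feature (6.90% to 10.8% a library) and ambiguous reads (2.64% to 4.53%) were left out of totals. The kit does not mark strand, and whether counting assumed one is not settled. Symbols, positions, lengths and sequences came from GENCODE M21 (GRCm38).

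CPM are counts scaled to 1000000 counts on genes, and lengths are those of the longest principal coding transcript. Counts were tested with edgeR 4.0.16 (quasi-likelihood) in R 4.3.3, with Benjamini-Hochberg adjustment over all genes tested and a threshold of 0.01, in one fit of the 6 whole oocytes and one of the 8 libraries at 18 cycles. A gene needed 5 counts or more in 2 libraries of a fit. Size factors were median ratios over those genes or over ERCC molecules. Alternatives were DESeq2 1.42.0, TMM, total ERCC counts, other filters, a replicate block and leaving out each library. After the results were seen, size factors over all genes without the filter were also tried, because the counts of called genes differed slightly from earlier ones; they did not match those either, and the fit as designed was kept. The tests were tried on simulated counts.

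Members and lists were chosen with earlier results of these data known. Named genes of the list were the 4 of largest log2 fold change in each direction, called and of at least 10 CPM on average, from 10 to 18 cycles and from whole oocytes to 1/8, and the 2 genes most correlated with each member.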

Additional observations from a re-analysis of the deposited data

How the results depend on the processing

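All 9 members in all 11 comparisons and 16 named changes of listed genes, whose alternatives were added after seeing the data, gave 115 log2 fold changes, of which 1501 of 1536 values under the alternatives kept their sign. ERCC counts among these alternatives only for the PCR cycles: for the fractions it was a comparison of its own, so changes of sign such as those in 1/8 from 1.63 to -3.25 for H1foo, 1.61 to -3.36 for Nasp and 1.06 to -3.95 for Npm2 are not among them. With ERCC size factors the values from 10 to 18 cycles became 0.88 for H1foo, 0.93 for Npm2, 0.17 for Hira, 0.54 for Nasp, 2.33 for Slbp, 0.72 for Mis18a, 0.91 for Zfp473, 0.89 for Npat and 0.92 for Npm1. From 14 to 18 cycles they became 0.72 for H1foo, 0.86 for Npm2, 1.14 for Hira and 0.79 for Nasp. These reversals follow from the scaling, which moved the median of all genes to 1.96 and 1.97.

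With 1 library left out, 21 values changed sign, none of a called change. From 10 to 14 cycles the ranges were -0.065 to 0.23 for Npm2, -0.27 to 0.28 for Asf1a and -0.46 to 0.12 for Nasp. Up to 18 cycles they were -0.64 to 0.41 for Slbp from 10, and -0.25 to 0.90 for H2afz and -0.42 to 0.62 for Slbp from 14 cycles. In 1/2 they were -1.21 to 0.21 for H2afz, -0.45 to 0.11 for Hira and, by ERCC, -1.19 to 0.068 for H1foo. In 1/4 they were -0.054 to 1.09 for H2afz, -0.33 to 0.60 for Asf1a and -0.33 to 0.73 for Slbp. Between 1/4 and 1/2 they were -0.52 to 0.31 for H1foo and -0.23 to 0.22 for Nasp, and between 1/8 and 1/2 -0.22 to 0.64 for H1foo, -1.03 to 0.42 for H2afz and -0.28 to 0.022 for Slbp. The cause was not tested.

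The count of members called was 0 under every setting for 14 against 10 cycles and for 1/4 against 1/2. DESeq2 and the fit with no filter called 1 member in 1/2, 1 in 1/4 and 3 between 1/8 and 1/2, where the fit as reported called 0, and the filter of at least 10 counts in every library called 1 in the last. DESeq2 and that filter also called Hira lower over genes from 14 to 18 cycles, making 7. By ERCC, edgeR with the filter as reported did not call Hira there. In 1/2 by ERCC 6 were called in place of 7 with no filter (Asf1a lost) and with total ERCC counts (Slbp lost). The cause was not tested. With 1 library left out the counts ranged from 3 to 7 (18 against 10 cycles), 2 to 6 (18 against 14), 1 to 3 (1/8 against whole oocytes), 0 to 1 (1/8 against 1/2) and, by ERCC, 0 to 8 in 1/2, 6 to 9 in 1/4 and 9 in 1/8. Each of these fits has fewer libraries. Size factors over all genes, chosen after seeing the data, called the same numbers of members as the fit as reported in all 8 comparisons scaled over genes, and 1915 genes lower and 2131 higher from 10 to 18 cycles.

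Labels number the replicates, but same-numbered libraries did not deviate together (correlations of -0.14 to 0.13), so the numbers were not taken to pair them. With the replicate number as a block, 7 members were called from 10 to 18 cycles, 6 from 14 to 18 cycles and 3 in 1/8, as without it, and Asf1a from 10 to 14 cycles, not called, went from -0.019 to 0.025. With reads on no feature in the denominator the members' share was 0.512%, 0.556% and 0.279% at 10, 14 and 18 cycles. Depth limits H2afz and Hira, with 2 and 13 counts in their lowest libraries.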
